A study of Mus musculus with 19 samples.

Results

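The 10 genes described here, Pecam1, Cdh5, Kdr, Flt1, Tek, Tie1, Vwf, Emcn, Plvap and Cldn5, are among the best known markers of the endothelial cells that line blood vessels. They were taken as a named list, and all 10 were found in both deposited tables, each of which holds 23284 mouse genes. RNA-seq had been used to compare mouse prostate, mouse fibroblasts and renal grafts grown to test whether reprogrammed fibroblasts can form prostate tissue. A table of 17 samples held 5 renal grafts (FS002, FS003, FS005, FS007 and FS008), 6 prostate samples (FS009 to FS014) and 6 fibroblast samples (FS015 to FS020), and the other held 2 more renal grafts (FS022 and FS023). All samples carry the strain label C57BL/6. The prostate was taken from mice at 6 weeks. The fibroblasts (MEFs) came from the limbs of embryos at E13.5, carry the label Nkx3-1tm2(LacZ)Mms /+, and were pooled from male and female littermates. The fibroblast cultures were sorted against CD45, Ter119, CD31, Mac-1 and EpCAM. Pecam1 encodes CD31, and a sort against it selects against endothelial cells and so against the cells that all 10 genes mark. The differences from fibroblasts are therefore given as a description of sorted cultures, and low levels there are not read as a finding. The renal grafts combined induced mouse epithelial cells, made from such fibroblasts by OSKM retroviruses, with rat urogenital mesenchyme from embryos at E18.5. They grew for 6 weeks under the kidney capsule of male nude mice that carried testosterone pellets. The methods describe grafts with and without added prostate transcription factors, which the labels do not separate. The study itself lists FS002, FS003, FS005, FS007 and FS008 as grafts with these factors, which by elimination leaves FS022 and FS023 as grafts without them. All are called renal grafts here as in the labels, and FS022 and FS023 are given as values beside the other 5, with no test between the sets. The sequenced graft can hold mouse cells of the host, mouse cells of the graft and rat cells. RNA from these sources, and rat reads that align to mouse genes, cannot be told apart in these tables.

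Endothelial cells seal vessels through adhesion and junction proteins, and they sense growth factors through receptor tyrosine kinases. VEGF acts on the receptors encoded by Kdr and Flt1, and angiopoietins act on the receptor encoded by Tek, with which the product of Tie1 forms complexes. Vessels of different organs and calibres differ in further genes, for example in those for the fenestral diaphragm of permeable capillaries. In bulk tissue the level of such genes follows both the number of endothelial cells and the RNA of each cell, and fewer cells and less RNA per cell cannot be told apart.

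Promoter windows from RefSeq (build GRCm38.p6, 250 bases before to 50 bases after the start) were matched by symbol for 6 of the 10 genes: Kdr, Flt1, Tek, Tie1, Emcn and Cldn5. No window was matched for Pecam1, Cdh5, Vwf and Plvap. The data are on mm9, so these positions are not those of the expression tables. Shown are the windows of the 2 genes with the lowest fibroblast levels among these 6 (Tie1 and Cldn5) and of the 2 with the highest (Kdr and Flt1). Capitals mark CAGGAA or CCGGAA on either strand (TTCCTG or TTCCGG in the printed strand), letters that ETS factors of endothelial cells can bind, and a CCGGAA can overlap one on the other strand.
Tie1, chr4:118489800-118490099, minus strand: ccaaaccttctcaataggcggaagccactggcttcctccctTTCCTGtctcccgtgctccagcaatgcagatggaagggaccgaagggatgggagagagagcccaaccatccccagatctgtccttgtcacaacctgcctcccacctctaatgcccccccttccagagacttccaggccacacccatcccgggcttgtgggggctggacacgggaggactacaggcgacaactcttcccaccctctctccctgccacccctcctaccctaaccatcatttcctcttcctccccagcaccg
Cldn5, chr16:18776597-18776896, plus strand: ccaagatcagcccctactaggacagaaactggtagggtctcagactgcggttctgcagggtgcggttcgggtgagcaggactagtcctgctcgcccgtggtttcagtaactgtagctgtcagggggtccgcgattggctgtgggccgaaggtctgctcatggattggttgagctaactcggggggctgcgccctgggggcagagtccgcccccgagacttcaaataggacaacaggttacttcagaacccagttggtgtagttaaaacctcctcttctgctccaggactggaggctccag
Kdr, chr5:75978406-75978705, minus strand: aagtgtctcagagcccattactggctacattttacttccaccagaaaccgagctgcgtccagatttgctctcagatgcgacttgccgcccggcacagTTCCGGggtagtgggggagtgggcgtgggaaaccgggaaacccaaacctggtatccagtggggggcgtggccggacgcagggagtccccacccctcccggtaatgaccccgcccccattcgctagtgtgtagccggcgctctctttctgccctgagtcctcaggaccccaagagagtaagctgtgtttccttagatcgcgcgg
Flt1, chr5:147725962-147726261, minus strand: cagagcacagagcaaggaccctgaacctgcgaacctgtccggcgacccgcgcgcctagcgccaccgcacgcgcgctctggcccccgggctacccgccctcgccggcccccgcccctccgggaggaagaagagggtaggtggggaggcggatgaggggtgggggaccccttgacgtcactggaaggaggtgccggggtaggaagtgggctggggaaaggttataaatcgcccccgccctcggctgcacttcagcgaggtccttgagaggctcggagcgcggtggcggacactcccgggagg
CAGGAA or CCGGAA was found in 4 of the 6 windows (Kdr, Tek, Tie1 and Emcn) and in 41.4% of all 32851 windows of this length. CAGGAA alone was in 3 of the 6, against 30.6% of all windows, and CCGGAA in the window of Kdr only, against 14.9%. The letters TATAAA were found in 1 of the 6, that of Flt1, against 13.6% of all windows, and Cldn5 held none of these letters. A match describes the letters of the window and is not evidence of binding.

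Each value is the authors' DESeq-normalized level of a gene on a log2 scale, and differences are given on that scale. Reads counted on genes were estimated at 17371427 to 23446528 in the 5 grafts, 16767292 to 22512393 in prostate and 20418164 to 26152345 in fibroblasts, and at 6629665 in FS022 and 9662059 in FS023. Values under that of 3 reads of the same sample are treated as not distinguishable from 0 at this depth, which covers counting error only. The fibroblast samples fell into 3 close pairs over all genes (FS015 and FS020, FS016 and FS019, FS017 and FS018), which differed more than counting noise and are kept as 6 samples. The labels do not say whether samples of a group came from separate cultures or animals, so the p-values measure the spread between these samples. Over all genes, grafts FS007 and FS008 stood apart from FS002, FS003 and FS005. The labelled prostate and fibroblast samples carried their own markers. The summed level of 4 secretory prostate genes was 20.05 to 21.13 in prostate, against 9.16 to 12.08 in the 5 grafts and 1.04 to 11.62 in fibroblasts. Grafts and fibroblasts thus overlapped for these genes. The summed level of 4 fibroblast genes was 18.41 to 19.04 in fibroblasts. Differences were tested with limma over all genes whose mean on the linear scale reached 10. To pass, a gene needed an adjusted p (Benjamini-Hochberg) under 0.05 and a log2 difference of 1 or more in either direction. Single genes were also compared by an exact two-sided permutation test over samples, for which the smallest possible p is 0.0022 with 6 against 6 samples and 0.0043 with 5 against 6.

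The vessel genes were at clear levels in every prostate sample and every graft, while the fibroblasts ranged from not detectable at this depth for Cldn5 to levels above both tissues for Flt1. At or below 3 reads were 3 of the 6 fibroblast samples for Pecam1, 4 for Tie1 and 6 for Cldn5, and 0 of 6 for Kdr, Flt1, Tek and Plvap. In prostate against fibroblasts, 8 of the 10 passed as higher and 1, Flt1, as lower, where 27.8% of the 14560 genes tested passed as higher and 20.5% as lower. For the same 8 every prostate sample was above every fibroblast sample, and for Flt1 every one was below, as for 37.4% and 29.3% of all genes tested. In the 5 grafts against fibroblasts, 8 passed as higher and 1, again Flt1, as lower, where 29.9% of 16121 genes passed as higher and 12% as lower. Every graft was above every fibroblast sample for 7 of the 10 genes, all but Kdr, Flt1 and Emcn, as for 28.4% of all genes tested. The 2 comparisons share the fibroblast samples. With Pecam1 left out, 7 of the other 9 passed as higher and 1 as lower in each comparison, with medians of 4.20 and 4.86. The median log2 difference of the 10 genes was 4.59 in prostate and 5.81 in grafts, against 0.17 and 0.26 over all genes tested, and it was the same with Cldn5 set at its lower bound. All 10 genes passed the filter on low values, but the fibroblast mean of Pecam1, Cdh5, Tie1 and Cldn5 was itself under the minimum. These genes entered through the tissue samples, and their difference is in part a matter of that choice. In the grafts against prostate, 6 of the 10 passed as higher (Cdh5, Kdr, Flt1, Vwf, Plvap and Cldn5) and 0 as lower, where 23% of 16353 genes passed as higher and 10.3% as lower. The median difference was 1.09 for the 10 genes and 0.11 for all genes. When the samples were set to equal distributions (quantile normalization), the median of all genes moved to -0.12, the split of all calls moved from 3757 higher and 1683 lower to 2567 and 3001, and 3 of the 10 genes (Cdh5, Vwf and Plvap) still passed. The same step moved the split of all calls from 4044 higher and 2982 lower to 3433 and 3479 in prostate against fibroblasts, and from 4815 and 1942 to 3028 and 3635 in grafts against fibroblasts, where the medians moved to 0.01 and -0.14.

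**Figure D1:**
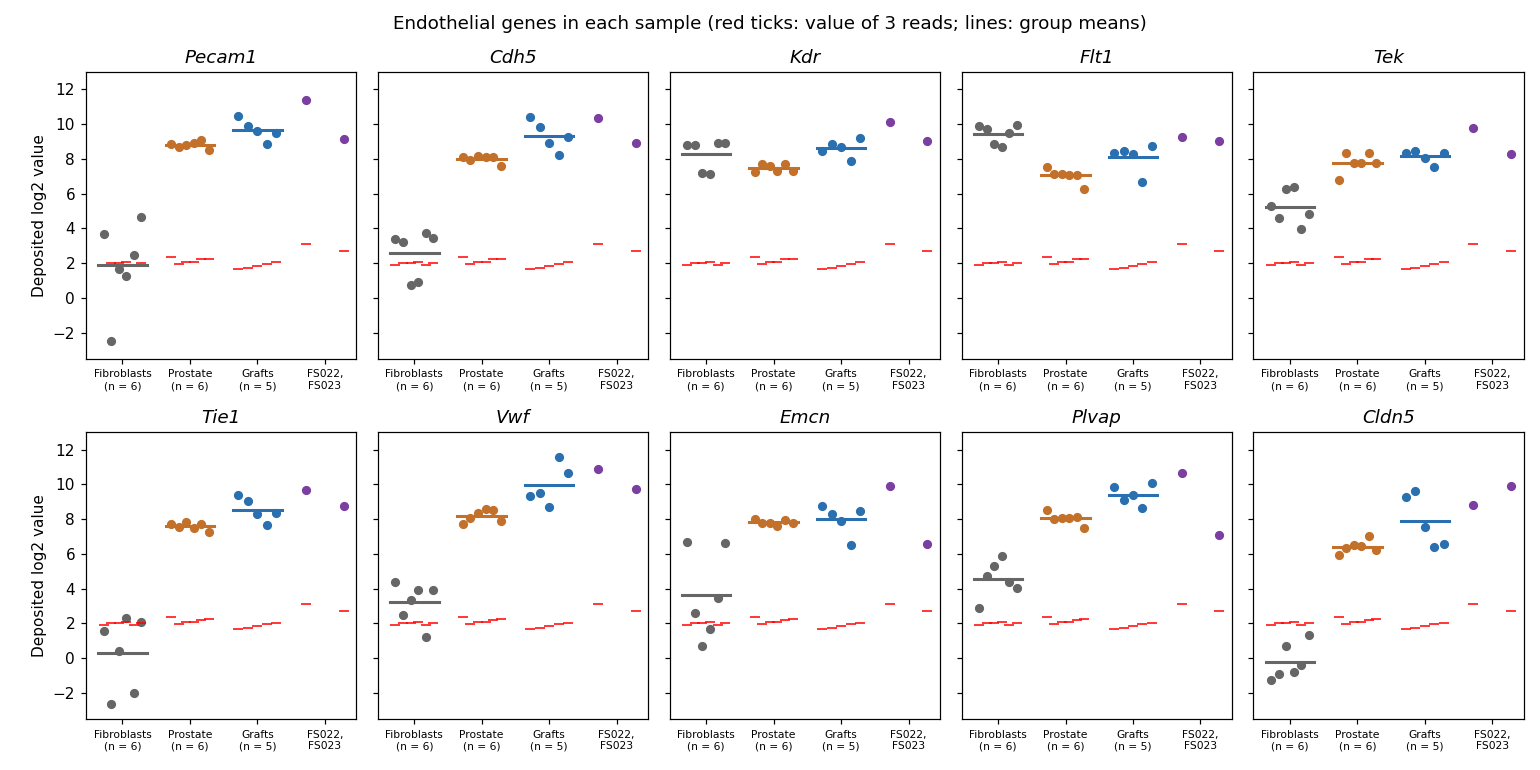
Deposited log2 values (y axis) of the 10 vessel genes in each sample (points, by group on the x axis), with lines for group means and red ticks at the value of 3 reads in that sample. Grafts and prostate sit well above the ticks for every gene, and the fibroblasts sit at or under them for Cldn5. For Flt1 the fibroblasts lie as high as the tissues or higher. For Kdr they lie at the level of the grafts, except FS017 and FS018, which lie below every prostate sample.

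Pecam1 encodes an adhesion protein of endothelial junctions that platelets and some leukocytes also carry. It lies on chromosome 11 from 106515531 to 106611942 in mm9 (minus strand), and a small nucleolar RNA gene, U3, lies within its span on the other strand, from which unstranded reads cannot be separated. Its values were 10.45, 9.90, 9.58, 8.87 and 9.51 in FS002, FS003, FS005, FS007 and FS008, the order kept for all grafts below, and ran from 8.50 to 9.08 in prostate with a median of 8.81. In the fibroblasts they ran from -2.50 to 4.68, with 3 of 6 samples at or below 3 reads. The highest there were the close pair FS015 and FS020, at 3.67 and 4.68. Of the grafts, only FS007 lay within the prostate range. The grafts were higher than prostate by 0.87 (standard error 0.23, adjusted p = 0.00784 from limma; exact permutation test, p = 0.013), which is under the minimum size of 1. FS022 had 11.36, above every other sample, and FS023 had 9.16.

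Cdh5 encodes VE-cadherin, the adherens junction cadherin of endothelium, and lies on chromosome 8 from 106625525 to 106668402 (plus strand). The graft values were 10.38, 9.81, 8.90, 8.25 and 9.26 in the same order, against 7.60 to 8.17 (median 8.10) in prostate and 0.75 to 3.75 (median 3.29) in fibroblasts. Every graft was above every prostate sample, and every prostate sample above every fibroblast sample. The log2 difference of grafts over prostate was 1.32 (standard error 0.31, limma adjusted p = 0.00424), with the smallest exact p that 5 against 6 samples can give (permutation test, p = 0.0043). Groups also did not overlap, with grafts higher, for Kdr, Vwf and Plvap, which makes 4 of the 10 genes, against 19.8% of all genes tested. On the linear scale the mean of Cdh5 in prostate was 40-fold that of fibroblasts, and in grafts 112-fold. FS022 and FS023 had 10.34 and 8.89.

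Cldn5 encodes claudin-5, a tight junction protein of endothelium, and lies on chromosome 16 from 18776940 to 18778353 (plus strand). All 6 fibroblast samples were at or below 3 reads. Against a floor of 3 reads per library, its level was at least 34.1-fold higher in prostate and at least 138-fold higher in grafts. The 5 grafts had 9.26, 9.59, 7.54, 6.41 and 6.56, and prostate ran from 5.92 to 7.03 (median 6.39). FS002 and FS003 were thus far above prostate, FS005 somewhat above it, and FS007 and FS008 within its range. The difference from prostate was 1.46 (standard error 0.56, adjusted p = 0.0443 from limma; exact permutation test, p = 0.039). It no longer passed without FS002 (1.12, adjusted p = 0.11), FS003 (1.03, adjusted p = 0.102) or FS005 (1.55, adjusted p = 0.0582), and without FS007 and FS008 it was 2.39. FS022 had 8.78 and FS023 9.91, the highest Cldn5 value of any sample.

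Kdr encodes VEGFR-2, the main signalling receptor for VEGF, and lies on chromosome 5 from 76328852 to 76374483 (minus strand). Its values were 8.44, 8.83, 8.70, 7.85 and 9.20 in the 5 grafts and 7.24 to 7.69 (median 7.46) in prostate, with no overlap. Grafts were higher than prostate by 1.13 (standard error 0.22, adjusted p = 0.00112 from limma; exact permutation test, p = 0.0043), and by 0.98 without FS008, just under the minimum size. The fibroblasts did not lack Kdr. They had 8.81 and 8.92 in the pair FS015 and FS020, 8.78 and 8.93 in FS016 and FS019, and 7.17 and 7.11 in FS017 and FS018. Of the 3 pairs, 2 were therefore at the level of the grafts and 1 was below every prostate sample. The log2 difference from fibroblasts was -0.81 for prostate (standard error 0.34, limma adjusted p = 0.0415, below the minimum size; exact permutation test, p = 0.061) and 0.32 for grafts (standard error 0.41, adjusted p = 0.513). The prostate difference passed without FS015 to FS018 (-1.45) and under quantile normalization (-1.09), and the graft difference turned to -0.33 and -0.14. FS022 and FS023 had 10.12 and 9.02.

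Flt1 encodes VEGFR-1, which binds VEGF and placental growth factor and also exists as a soluble form that traps them. It lies on chromosome 5 from 148373180 to 148537587 (minus strand). With the values as deposited and all samples kept, it was the only one of the 10 genes to pass as lower in a tissue than in the fibroblasts. The fibroblasts had 9.88 and 9.95 in the pair FS015 and FS020, 9.70 and 9.51 in FS016 and FS019, and 8.84 and 8.68 in FS017 and FS018. Prostate ran from 6.27 to 7.54 (median 7.12), below all of them, a log2 difference of -2.38 (standard error 0.25, adjusted p = 1.43e-06 from limma; exact permutation test, p = 0.0022). The grafts had 8.36, 8.44, 8.30, 6.66 and 8.71, between the other groups except for FS007, which was within the prostate range, and for FS008, which was above the lowest fibroblast sample. Against fibroblasts the graft difference was -1.33 (standard error 0.37, adjusted p = 0.0087 from limma; exact permutation test, p = 0.0087). It missed the threshold with the close fibroblast pairs averaged (adjusted p = 0.0508) and without FS015 to FS018 (-1.64, adjusted p = 0.0535), and it fell under the minimum size without FS007 (-0.97). Against prostate it was 1.06 (standard error 0.35, adjusted p = 0.0239 from limma; exact permutation test, p = 0.026). That call was lost without FS002 (0.99), FS003 (0.97), FS005 (1.00, adjusted p = 0.0508) or FS008 (0.90), and the difference was 1.41 without FS007. FS022 and FS023 had 9.24 and 9.02, above all 5 grafts and all prostate samples.

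**Figure D2:**
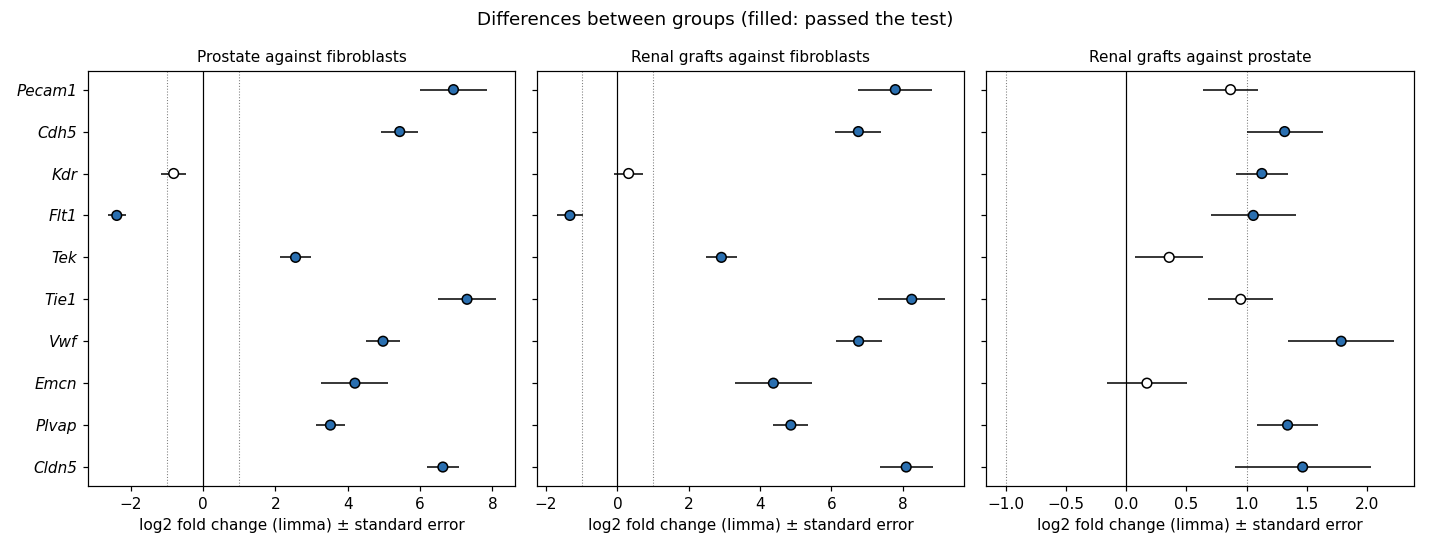
Log2 fold changes from limma (x axis, points) with standard errors (bars) of the 10 vessel genes in 3 comparisons, filled where the gene passed, with dotted lines at the minimum size of 1. Against fibroblasts 8 genes lie far to the right and Flt1 to the left of 0, and against prostate all 10 lie at or right of 0, where Tek and Emcn lie nearest to 0 and turn slightly negative under quantile normalization.

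Tek encodes the angiopoietin receptor TIE2 and lies on chromosome 4 from 94405980 to 94541667 (plus strand). Grafts had 8.36, 8.44, 8.05, 7.50 and 8.35, and prostate ran from 6.76 to 8.36 (median 7.75). The groups overlapped widely. The difference was 0.36 (standard error 0.28, adjusted p = 0.303 from limma; exact permutation test, p = 0.25) and turned to -0.05 under quantile normalization. The fibroblasts held low but clear Tek levels, 3.96 to 6.39, and the highest were the pair FS017 and FS018, at 6.26 and 6.39. Prostate was 5.38-fold and grafts 6.67-fold the fibroblast mean on the linear scale (adjusted p = 7.87e-05 and 0.000142 from limma). FS022 had 9.75 and FS023 8.26.

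Tie1, on chromosome 4 from 118143796 to 118162666 (minus strand), encodes a related receptor without a ligand of its own among the angiopoietins. It was at or below 3 reads in 4 of the 6 fibroblast samples and never above 3.7 estimated reads. The grafts had 9.36, 9.06, 8.27, 7.65 and 8.32, and prostate ran from 7.25 to 7.82 (median 7.62), so that only FS007 lay within the prostate range. The difference was 0.95 (standard error 0.27, adjusted p = 0.0115 from limma; exact permutation test, p = 0.017), under the minimum size of 1. It passed without FS005 (1.02), FS007 (1.17) or FS008 (1.00). FS022 and FS023 had 9.65 and 8.75.

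Vwf encodes von Willebrand factor, a clotting protein that endothelium stores and platelets carry, and lies on chromosome 6 from 125496792 to 125636697 (plus strand). In graft FS007 it ran against the other genes. The values were 9.35, 9.52 and 8.71 in FS002, FS003 and FS005, and 11.58 and 10.66 in FS007 and FS008. The highest graft for Vwf was thus FS007, which had the lowest value of the grafts for all 9 other genes. Prostate ran from 7.70 to 8.57 (median 8.21), and fibroblasts from 1.23 to 4.36. The difference of grafts over prostate was 1.78 (standard error 0.44, adjusted p = 0.005 from limma; exact permutation test, p = 0.0043). Without FS007 and FS008 it was 1.01 and still passed. The summed level of the 5 megakaryocyte and platelet genes was 9.61, 9.6, 8.48, 7.95 and 6.01 in FS002, FS003, FS005, FS007 and FS008. Pf4 was at 4.46 and 4.39 in FS007 and FS008 against 5.31 to 6.58 in the other 3 grafts, and Itga2b was at 4.66 and 5.19 against 6.34 to 6.60. Pf4 and Itga2b were picked from this list after their values were seen. Ppbp and Gp1bb of the same list were higher in the grafts than in prostate, and their values per graft are not given here. Whether platelets have a part in the Vwf values was not tested. FS022 and FS023 had Vwf values of 10.86 and 9.71.

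Emcn encodes endomucin, a sialomucin of capillary and venous endothelium, and lies on chromosome 3 from 137004031 to 137095149 (plus strand). Grafts had 8.76, 8.32, 7.88, 6.51 and 8.44, against 7.57 to 8.01 (median 7.79) in prostate. FS002, FS003 and FS008 were above prostate, FS005 within its range and FS007 below it. The difference was 0.17 (standard error 0.33, adjusted p = 0.677 from limma; exact permutation test, p = 0.69), and it was -0.02 without FS002 and -0.20 under quantile normalization. In the fibroblasts the pair FS015 and FS020 had 6.70 and 6.60, while the other 4 samples had 0.70 to 3.45. Leukocyte genes moved with that pair. Their summed level had a median of 7.26 over the fibroblasts and reached 11.93, with Ptprc at 8.83 and 8.50 in FS015 and FS020 and at 1.31 to 3.48 in the other 4, and Tal1, a transcription factor of blood and endothelium, was at 5.64 in each of the pair. The sort was against the products of Ptprc (CD45) and Itgam (Mac-1), and these genes were nevertheless present in the pair. Whether leukocytes have a part in the Emcn value was not tested. FS022 had 9.90 and FS023 6.54, below every prostate sample.

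Plvap encodes the protein of the diaphragms of fenestrae and caveolae, and lies on chromosome 8 from 74021653 to 74035668 (minus strand). It overlaps Gtpbp3 on the other strand, and the kit did not mark strand. Grafts had 9.84, 9.07, 9.36, 8.65 and 10.05, all above the prostate range of 7.50 to 8.52 (median 8.07). The difference was 1.34 (standard error 0.25, adjusted p = 0.000981 from limma; exact permutation test, p = 0.0043). Fibroblasts ran from 2.86 to 5.87, again highest in FS017 and FS018 (5.33 and 5.87). FS022 had 10.64 and FS023 7.10, below every prostate sample.

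The grafts differed among themselves more than the prostate samples did. The range over the 5 grafts exceeded that over the 6 prostate samples for 9 of the 10 genes, all but Tek, for which it was 0.93 against 1.60. Over 4014 genes with high values, pairs of grafts also mostly differed more than pairs of prostate samples. The spread of the difference was 0.20 to 0.45 in grafts and 0.12 to 0.29 in prostate. The share of all genes with a wider graft range was not counted. The wider range is therefore not read as particular to the vessel genes. Averaged over the 10 genes, the level above the prostate mean was 1.54 in FS002, 1.38 in FS003, 1.19 in FS008, 0.82 in FS005 and 0.28 in FS007, and 2.35 and 0.92 in FS022 and FS023. Without Vwf, the other 9 genes of FS007 averaged -0.07, at the prostate level, and those of the other 4 grafts 0.85 to 1.58. FS002 and FS003 exceeded the highest prostate sample in 10 of 10 genes, FS005 and FS008 in 8, and FS007 in 4. FS022 exceeded it in 10 of 10, and FS023 in 7, with Emcn and Plvap below the lowest prostate sample. All 5 grafts were above every prostate sample for 19.8% of all genes tested, and the share for a single graft was not counted. These counts per graft are thus a description of the 10 genes only. The tables were normalized separately, and over 10188 genes the median of FS022 and FS023 lay 0.10 and 0.12 below the mean of all samples.

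To see whether the balance among the vessel genes differed, each gene was set against the mean of Pecam1 and Cdh5 of the same sample. On this scale 0 of the 8 other genes passed between grafts and prostate in limma, where 12.4% of 16351 genes passed as higher and 47.2% as lower, and the median of all genes was -0.98. At an unadjusted p under 0.05 the count was 1, Emcn. It differed by -0.92 in the grafts (standard error 0.30, limma adjusted p = 0.0136), less than the minimum size, with relative values of -2.04 to -0.94 in grafts, which lay below the prostate values of -0.94 to -0.26 by a hair at the near end (FS008 against FS012). Such a gap, with grafts lower, was found for 31.2% of all genes tested on this scale. Tek had a difference of -0.73 (adjusted p = 0.0761). The relative level of Vwf was 3.02 in FS007 and 1.27 in FS008 and ran from -1.06 to -0.34 in FS002, FS003 and FS005, against -0.77 to 0.06 in prostate. Without FS007 and FS008 the relative difference of Vwf turned from 0.69 to -0.42. Tie1 held a narrow relation to Pecam1 and Cdh5 in these samples, at -1.06 to -0.79 in the 5 grafts and -1.05 to -0.66 in prostate. FS022 and FS023 lay outside these ranges, at -1.20 and -0.27. FS023 stood apart from the other grafts, with relative levels of 0.88 for Cldn5, -1.93 for Plvap and -2.48 for Emcn.

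**Figure D3:**
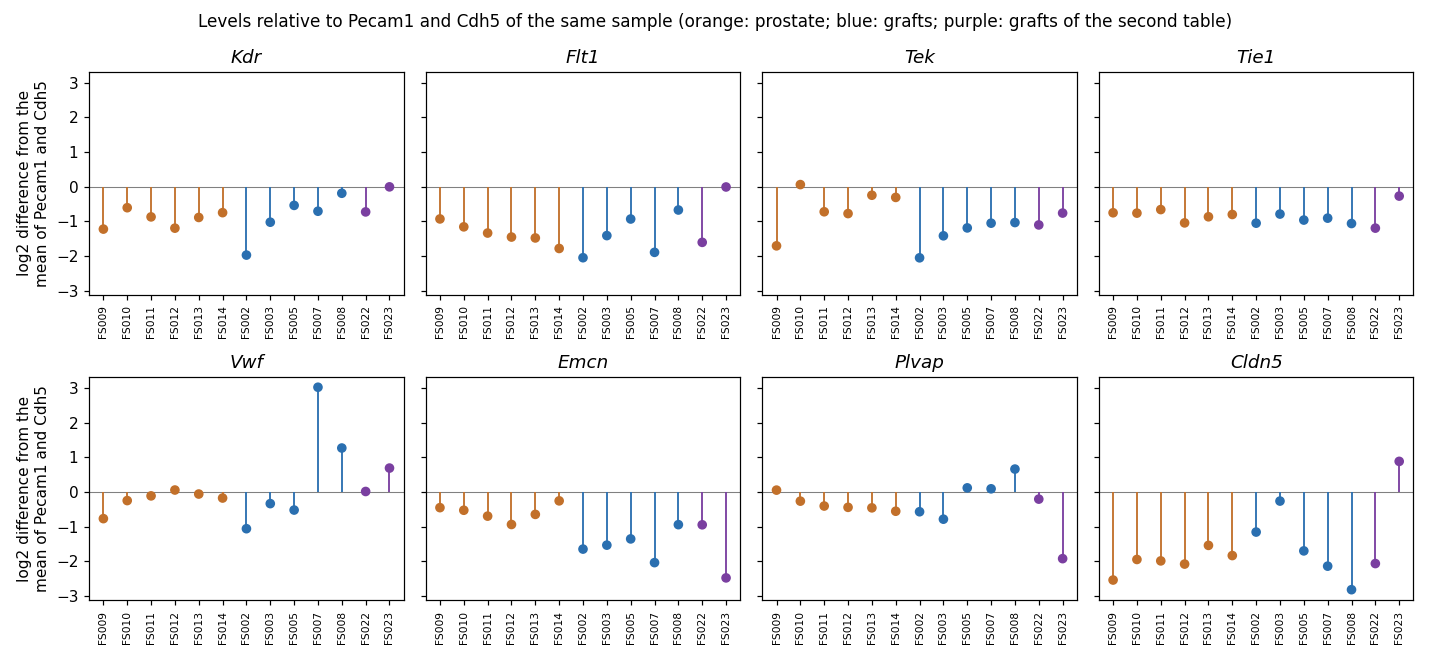
Log2 level of 8 vessel genes relative to the mean of Pecam1 and Cdh5 in the same sample (y axis), for each prostate sample and graft (x axis, stems and points). Vwf rises to 3.02 in FS007, Tie1 stays near the same relative level in the prostate samples and the 5 grafts, and FS023 is low for Emcn and Plvap and high for Cldn5.

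Compared per kilobase of annotated exon, the highest of the 10 genes in prostate was Plvap, with a log2 level per kilobase of 7.03 ± 0.33 (SD, n = 6), followed by Pecam1 at 6.68 ± 0.20, Cdh5 at 6.00 ± 0.21, Cldn5 at 5.88 ± 0.37, Tek at 5.53 ± 0.59, Emcn at 5.37 ± 0.15, Tie1 at 5.27 ± 0.21, Kdr at 4.60 ± 0.21, Vwf at 4.17 ± 0.36 and Flt1 at 3.49 ± 0.42. From Cdh5 to Tie1 the neighbours lay closer than their SDs. In the grafts the order began with Plvap at 8.38 ± 0.57 (SD, n = 5), Pecam1 at 7.55 ± 0.58, Cldn5 at 7.36 ± 1.50 and Cdh5 at 7.32 ± 0.82, the last 3 within their spread. It ended, as in prostate, with Flt1, at 4.55 ± 0.83. In the fibroblasts Flt1 (5.89 ± 0.54, SD, n = 6) and Kdr (5.41 ± 0.90) were the highest of the 10 per kilobase and were not apart beyond their spread. The exon lengths are those of all annotated isoforms together, which lowers the level per kilobase of genes with many isoforms.

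Genes of other cells and vessels were read from lists beside the members. For the counts against prostate below, the shares of all 16353 genes tested were 23% higher and 10.3% lower. Under quantile normalization 2567 of these genes were higher and 3001 lower. Counts in lists this short are a description only. Kidney tubule genes marked the grafts, with 7 of 7 higher than in prostate (median log2 difference 7.94). Slc34a1, a phosphate transporter of the proximal tubule, had 13.24, 7.19, 14.72, 10.44 and 15.21 in the 5 grafts, and Umod, of the thick ascending limb, had 13.06, 4.93, 12.05, 6.09 and 12.56. Kidney signal was thus high in FS002, FS005 and FS008 and much lower in FS003 and FS007. FS003, with the lowest Slc34a1 of the 5, had all 10 vessel genes above the highest prostate sample, while FS007, with the second lowest, had the lowest value of the 5 for 9 of the 10 genes. By summed level the lowest was FS005 (11.98), with FS007 at 12.32 through its Vwf. Nphs1, a gene of podocytes, was at 6.23 to 6.68 in FS002, FS005 and FS008, and at -0.30 and 2.34 in FS007 and FS003. The part of host kidney vessels in the vessel genes was not tested. Leukocyte genes, of which 4 of the 6 were tested, were 4 of 4 higher in the grafts, with a summed level of 11.16 to 12.24 against 9.18 to 10.84 in prostate. Of 7 mural cell genes, which mark pericytes and smooth muscle of vessels, 1 was higher, Notch3 (1.41, standard error 0.22, limma adjusted p = 0.000295), and the median difference was -0.93, while under quantile normalization 1 was higher and 2 lower. The summed mural level was 11.35 to 13.67 in the 5 grafts and 13.16 to 13.80 in prostate, and 15.63 in FS022 and 12.32 in FS023. Of 6 red blood cell genes only Alas2 was tested, and it did not pass (-0.39), though it passed as lower under quantile normalization (-1.08, limma adjusted p = 0.0239).

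**Figure D4:**
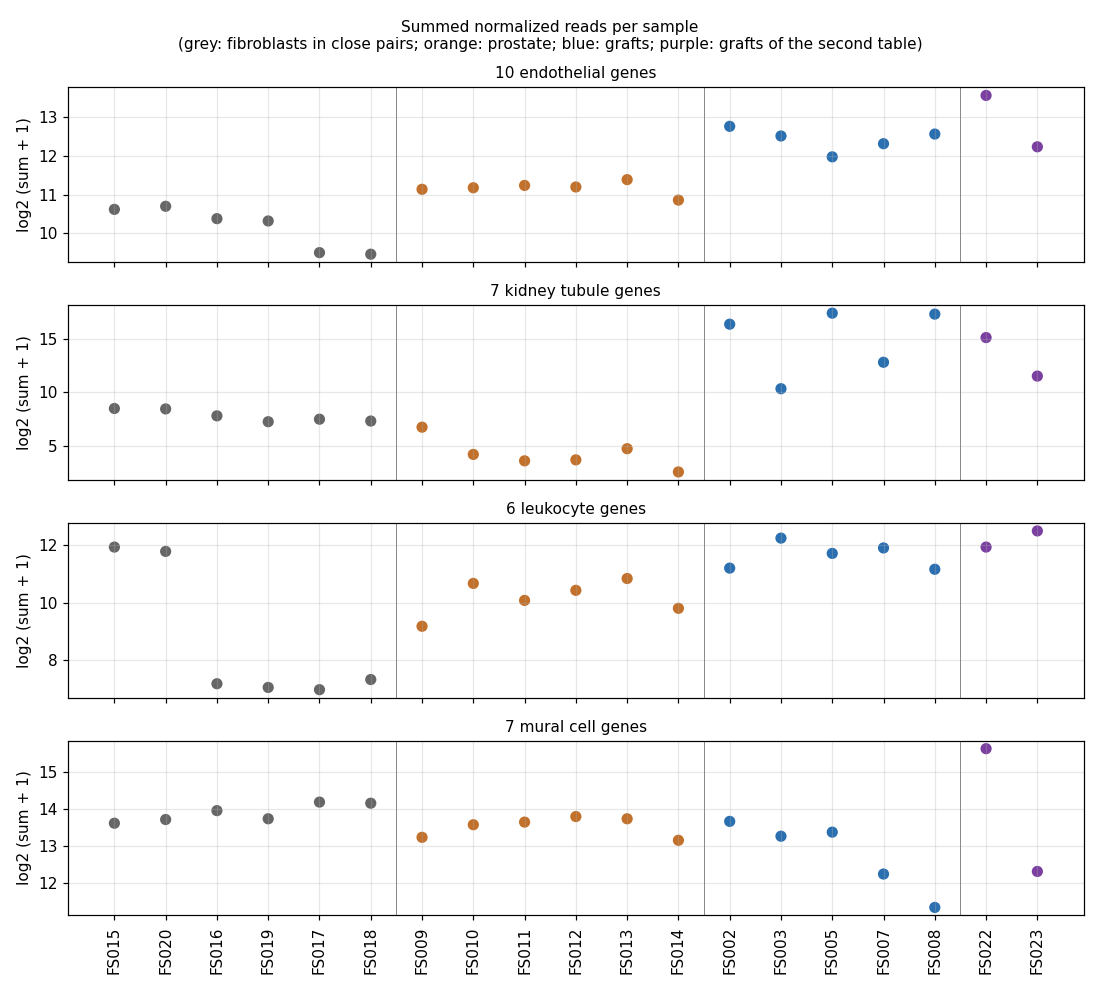
Summed normalized reads of 4 gene lists (y axis, log2 of the sum plus 1) in each sample (x axis, fibroblasts ordered by close pairs). The vessel genes run from 11.98 to 12.77 in the 5 grafts and from 10.86 to 11.39 in prostate, the kidney tubule genes range from 10.31 to 17.37 among those grafts, and the leukocyte genes are high in fibroblast samples FS015 and FS020.

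Of 10 VEGF, angiopoietin and related vessel ligands, 3 were higher in grafts than in prostate and 1 was lower, with a median of 0.09. These shares are near those of all genes tested (23% higher and 10.3% lower), so the counts say nothing particular about the ligands. Dll4, the Notch ligand of arterial and sprouting endothelium, was higher by 2.36 (standard error 0.29, adjusted p = 4.68e-05 from limma), Apln by 2.27 and Angpt1, the activating ligand of the Tek receptor, by 1.37 (limma adjusted p = 0.0364). Apln and Angpt1 had higher means in the fibroblasts (9.58 and 8.24) than in the grafts (6.65 and 7.67). Dll4 was at or below 3 reads in all 6 fibroblast samples. Angpt4 was lower, with a difference of -2.82. Under quantile normalization 2 ligands were higher and 4 lower, and the median was -0.87, where 2567 of 16353 genes were higher and 3001 lower. Vegfa had similar levels in grafts (10.30 to 11.26) and prostate (9.94 to 10.80) and did not pass. Against fibroblasts the ligands were, if called, mostly lower. In grafts 4 of 10 were lower and 1 higher, beside 12% and 29.9% of all genes. In prostate 4 were lower and 2 higher, beside 20.5% and 27.8% of all genes. Under quantile normalization 5 were lower and 1 higher in each. Of all genes in that setting, 3635 of 16121 were lower and 3028 higher in grafts, and 3479 of 14560 lower and 3433 higher in prostate.

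Of 13 partners of the members, 4 were higher in grafts than in prostate and 0 lower in limma, a share of higher calls not far from the 23% of all genes. Notch4, a Notch receptor of endothelium, had 12.30 and 11.82 in FS007 and FS008 against 7.78 to 8.75 in the other 3 grafts and 6.13 to 6.90 in prostate, and Vwf was highest in the same pair of grafts. S1pr1, the sphingosine phosphate receptor that steadies vessels, was higher by 1.68 (limma adjusted p = 0.000112), Aplnr by 1.56 and Nrp2 by 1.12. S1pr1 and Nrp2 had higher means in the sorted fibroblasts (9.15 and 12.26) than in the grafts (8.66 and 10.00). Aplnr had a mean of 1.82 in fibroblasts and 7.90 in grafts. Nrp1, the co-receptor of VEGF with Kdr, was at 12.89 to 13.67 in the fibroblasts against 9.13 to 10.23 in the grafts and 8.73 to 9.69 in prostate.

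Endothelial transcription factors were higher in grafts than in prostate in 9 of 12 tested and lower in 1, beside 23% and 10.3% of all genes, with a median of 1.41 against 0.11 for all genes. Under quantile normalization 3 were higher and 1 lower, with a median of 0.44, where 2567 of 16353 genes were higher and 3001 lower. Hhex (2.84), Sox17 (2.03, standard error 0.19, adjusted p = 8.19e-06 from limma) and Epas1 (1.74), which encodes HIF-2 alpha, had the largest differences among the higher ones. Gata2 was the lower one, by -4.87, with a mean of 12.51 in prostate, where epithelial cells also use it. Sox17 was above the value of 3 reads in all prostate samples (5.49 to 6.15) and grafts (7.45 to 8.02) and at -2.43 to 1.03, under that value, in all 6 fibroblast samples. Erg, in contrast, was highest in the fibroblast pair FS017 and FS018, at 9.46 and 9.60, the pair in which Tek and Plvap were also highest and Kdr and Flt1 lowest.

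Of the 19 other endothelial surface and junction genes tested, 7 were higher in the grafts, beside 23% of all genes, and 0 lower (median 0.92). Among the higher ones were Vcam1 (2.01), Cd93 (1.64) and Clec14a (1.42). Under quantile normalization 3 were higher (median 0.31), near the share of all genes, of which 2567 of 16353 were higher. Against fibroblasts in that setting Vcam1 was lower in the grafts (-1.7), Cd93 higher (2.73), and Clec14a did not pass (-0.12). Of 6 arterial genes 3 were higher, Bmx (1.99), Efnb2 (1.34) and Sema3g (1.25), of which Efnb2 alone passed under quantile normalization. Against fibroblasts in that setting Efnb2 was at -0.49 and did not pass, while Bmx (3.84) and Sema3g (3.03) passed as higher. For this list and those that follow, of 4 to 7 genes each, the shares of all genes were 23% higher and 10.3% lower. Counts in lists this short are a description only. Of 7 genes of capillary and fenestrated endothelium 3 were higher, Car4 (7.16, standard error 0.88, adjusted p = 5.17e-05 from limma), Cd36 (2.64) and Ehd3 (1.88), the last a gene of glomerular endothelium. Against fibroblasts under quantile normalization Ehd3 was at -0.75 and did not pass, while Car4 (7.92) and Cd36 (5.46) passed as higher. Car4 and Cd36 are also expressed by kidney tubule or other cells, and Car4 was lowest in FS007 (5.36) and at 8.16 to 10.64 in the other 4. Of 4 lymphatic genes tested, Prox1 was higher (2.15, but 0.78 and not passing under quantile normalization) and Lyve1 lower (-2.82), with Lyve1 at 4.35 to 7.87 in grafts and 6.54 to 9.82 in prostate. Of the 4 platelet and megakaryocyte genes tested, Ppbp (5.42) and Gp1bb (2.89) were higher, and under quantile normalization Pf4 also passed, as lower (-1.92, limma adjusted p = 0.00158).

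The genes most like the 10 in pattern were those with the smallest root mean square difference from the mean profile of the members over the 17 samples of the larger table, each gene centred on its own mean. Of 16101 genes ranked, the closest outside the list was Arhgef15 (0.37), which encodes an exchange factor of endothelium, then Gpr56 (0.40), Lilra5 (0.42), Papln (0.46), 5930412G12Rik (0.48), Prkcz (0.48), Cp (0.48), Cadm4 (0.55), Eltd1 (0.55) and Cbfa2t3 (0.56). Arhgef15 had a mean of 6.99 in grafts, 6.05 in prostate and 2.65 in fibroblasts. The members themselves lay farther from their own mean, from Plvap at rank 173 to Flt1 at rank 14263. The samples share their group in this ranking, so any gene low in fibroblasts and slightly higher in grafts than in prostate comes close to the profile.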

How the data were processed

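RNA was sequenced as single-end reads from TruSeq RNA v2 libraries, a kit that does not mark strand. The submitters' processing notes name bcl2fastq 1.8.4, TopHat, Cufflinks, DESeq and the build mm9, without roles. The authors deposited DESeq-normalized values on a log2 scale, in a table of 17 samples and another of 2 that was normalized separately, so tests stayed within the first. High values (11.5 to 15) are whole reads times a constant of the sample to within 0.05 reads, which gave the estimated depth and the value of 3 reads. Lower values carry added scatter, so no count test was run and no pseudocount was added.

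Values were tested as deposited in R 4.3.3, by lmFit and then eBayes (trended) of limma 3.58.1, with Benjamini-Hochberg adjustment over all genes tested, and the fit was checked on simulated data. Only samples of the groups in a comparison entered it, with the genes whose linear mean reached 10. Exact permutation tests used scipy 1.17.1, and figures matplotlib 3.10.9. Groups follow the sample labels. Positions and exon lengths are from GENCODE M1 on mm9. The genes named are all 10 members, at most 4 genes of a list (those with the largest differences that passed, or a defining marker), and the 10 genes closest in profile. Nrp1, Vegfa, Erg, Tal1, Pf4, Itga2b and Alas2 were named after their values were seen. The members and lists were chosen with earlier results of these data known. Alternatives changed the scaling, the filter (none, or 50), the pseudocount (16), the minimum fold change and the samples in the fit. Results for some genes of these lists are not reported here.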

Additional observations from a re-analysis of the deposited data

Results flagged for a closer look

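Flt1 in renal graft FS007 had a value of 6.66, against 8.30 to 8.71 in the other 4 grafts, which puts it farther from them than Dixon's 95% limit for 5 samples allows. Of 30 sets of values tested in this way (10 genes in 3 groups), 1 was marked, and chance alone gives about 1.5.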

How the results depend on the processing

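The direction and call of Cdh5, Vwf and Plvap were the same under every alternative run for the 3 comparisons between groups. In grafts against prostate, 6 genes passed, 3 with quantile normalization and 4 to 8 when each graft was left out. In grafts against fibroblasts 9 passed, and 8 to 9 when each graft was left out. Relative to Pecam1 and Cdh5, 0 passed in limma, 2 with quantile normalization (Tek and Emcn, lower), 1 with no minimum fold change (Emcn), and 0 to 1 when each graft was left out (Emcn, without FS008). The exact tests gave 9 genes with p under 0.05 in each comparison with fibroblasts, and 0 without FS015 to FS018, since 2 fibroblast samples allow no such p. With the close fibroblast pairs averaged they gave 9 for prostate and 8 for grafts, where Emcn was lost (exact permutation test, p = 0.071, with 0.036 the smallest p possible). Against prostate they gave 8, and 6 to 9 when each graft was left out. The exact tests were run on the members only, and the share of all genes with such a p was not counted. Without overlap between prostate and fibroblasts were 37.4% of all genes tested, with prostate higher, and 29.3%, with prostate lower. A gene without overlap has the smallest possible p, so these counts describe the members only.

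Directions turned for Kdr in grafts against fibroblasts (-0.14 with quantile normalization, -0.33 without FS015 to FS018), and in grafts against prostate for Tek (-0.05) and Emcn (-0.20) with quantile normalization and for Emcn (-0.02) without FS002. Relative to Pecam1 and Cdh5 they turned for Kdr (-0.22 with quantile normalization, -0.05 without FS005, -0.01 without FS007, -0.14 without FS008, -0.26 without FS007 and FS008), Flt1 (0.13 without FS002, 0.09 without FS007), Cldn5 (-0.04 with quantile normalization), and Vwf (-0.42) and Plvap (-0.07) without FS007 and FS008. None of these passed in either direction, and the cause was not tested. Averaging the close fibroblast pairs and leaving out FS007 and FS008 together were chosen after seeing the data. FS015 to FS018 were left out because they hold 0.0539 to 0.18% of the prostate level of secretory genes, which would give at most 1.06 reads of any member. No paired analysis was possible because the labels give no replicate numbers that the groups share. Depth limits the fibroblast values of Cldn5 and Tie1, which lie near or under 3 reads, and the lower ones of Pecam1. Pecam1 had 14.8 and 27.7 estimated reads in FS015 and FS020.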
